A study of Homo sapiens with 8 samples.

Results

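The response of the rituximab resistant Burkitt lymphoma line Raji-4RH to the histone deacetylase inhibitor chidamide was measured by RNA-seq. Its members were chosen by their labels, as 4 of the 8 libraries of the series: 2 libraries of Raji-4RH cells treated with DMSO, the solvent, and 2 of Raji-4RH cells treated with chidamide at 3 μM, both for 24 h. The other 4 libraries are the same treatments of the parental line Raji and serve to test where the resistant line differed. They also enter the filter of tested genes and the spread behind the p-values of Raji-4RH. Raji-4RH is a derivative of Raji that was selected by repeated exposure to rituximab, an antibody against CD20, so that both the DMSO and the chidamide group carry that selection. Cells of both lines were at 2 to 3 passages and were collected by flow sorting, with no gate described, and nothing in the labels says that the 2 libraries of a group came from separate cultures. The p-values therefore measure the spread between libraries of a group, pooled over the groups of both lines, which may be technical.

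Histone deacetylases remove acetyl groups from lysines of histone tails and of other proteins, and an inhibitor such as chidamide leaves chromatin more acetylated. Inhibitors of this class are known to arrest cycling cells, with the CDK inhibitor p21 as a classical induced gene, and to raise genes that are silent in the untreated cell. Burkitt lymphoma cells are transformed germinal centre B cells with a translocated MYC gene, and they divide fast. Entry into S phase is driven by E2F transcription factors, which bind short sites before replication genes, while many mitotic genes are controlled through the cell cycle genes homology region, a short element close to their start sites.

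Values are FPKM, or reads scaled to gene length and library size. Log2 fold changes, called effects below, are differences of log2(FPKM + 1), chidamide over DMSO, which understate the change of low genes, and each is given ± its SE. With a pseudocount of 0.1 in place of 1, the effects of 11 of the 118 called genes named were over 1.5 times as large. Adjusted p-values are from limma with Benjamini-Hochberg adjustment over the 10710 genes tested, and a gene was called at an adjusted p under 0.05. The 4 libraries held 13991697 to 21193441 reads, with the smallest total in chidamide replicate 1, and each was closest to its own replicate. The median difference between replicates, in absolute log2 units, was 0.0564 in DMSO and 0.107 in chidamide. In Raji it was 0.0718 in DMSO and 0.049 in chidamide. The deposited table holds 63967 gene labels beside 63305 rows of values. For 11909 of the labels used here, the values stand between 1 and 14 rows below the label. Each of 18143 labels was therefore given the values found for it, and 86.0% of 207 genes of abundant families were then high, against 54.6% in the row of the label. The values of TEX19, GNG8, H1FX, CHAF1A, MTF1, FASN, PSAP, MZB1, CD3D, LCK and HBA2 lie in stretches of the table with fewer than 10 such genes, where this check says little. Of 11 tested B cell markers, 6 were called higher and 4 lower, where 43.3% and 31.6% of all genes tested were. CD79B was at 232 and 238 FPKM in DMSO and 286 and 268 FPKM in chidamide. No epithelial and no erythroid marker reached the filter of 1 FPKM in at least 2 of the 8 libraries that set the genes tested.

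Chidamide changed most of the tested transcriptome of Raji-4RH. In all, 8022 of 10710 genes (74.9%) were called, 4642 higher (43.3%) and 3380 lower (31.6%). The values of the groups did not overlap for 86.5% of the genes. An effect of at least 1 on the log2 scale was reached by 15.1% of the genes, 1079 higher (10.1%) and 541 lower (5.05%). Called genes were thus 57.9% higher and 42.1% lower, but after quantile normalization 47.8% were higher and 52.2% lower, 3718 against 4057, as the median effect of all genes moved from 0.093 to −0.022. Directions of small effects depend on that choice, and list medians below are read against 0.093. Counts in lists are read against the 43.3% higher and 31.6% lower of all genes. Members under the filter are left out of the counts, and a low gene passed it only where it was high, so in lists with many low genes a surplus of rises supports nothing. Where at least 3 members lay under 1 FPKM in all 4 libraries, the number listed or placed is given too. In bulk RNA, fewer cells of a type and less RNA per cell cannot be told apart, and FPKM shows no change of total RNA.

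Shares of large rises and falls differed with the level in DMSO. Of 1402 tested genes under 1 FPKM in DMSO, 38.4% rose by at least 1. On the log2(FPKM + 1) scale such genes cannot fall by that much, and the filter kept only those that were higher in other libraries, so their share is read alone. Of 4052 genes between 5 and 20 FPKM, 3.4% rose and 5.0% fell by at least 1. Of 1975 genes between 20 and 100 FPKM, 1.2% rose and 14.3% fell by at least 1. The number of genes at 1 FPKM or more was 9344 and 9315 in DMSO and 10294 and 10407 in chidamide, of 18143 placed. There were 53 genes with at most 3 reads over both DMSO libraries that reached 1 FPKM in both chidamide libraries, and 2 genes the other way round.

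**Figure D1:**
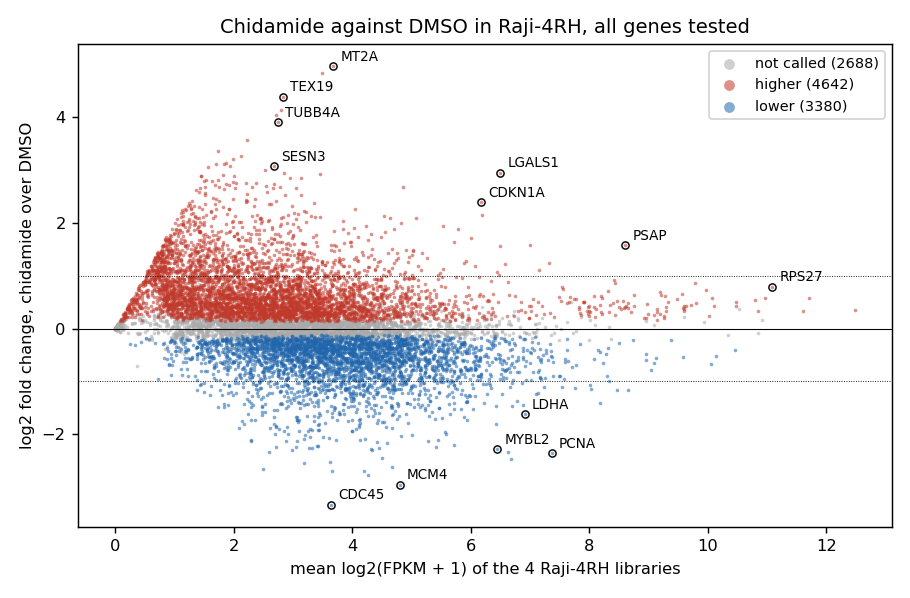
Each point is 1 of the 10710 genes tested, with its mean log2(FPKM + 1) over the 4 Raji-4RH libraries on the x axis and its log2 fold change, chidamide over DMSO, on the y axis. Red points are the 4642 genes called higher, blue the 3380 called lower and grey those not called, and dotted lines mark a log2 fold change of 1 in either direction. The large rises lie at low mean levels and the large falls at middle levels.

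Among the largest rises were several genes near silence in DMSO. SPINK2, which encodes a secreted serine protease inhibitor, was at 0.691 and 0.55 FPKM in DMSO and at 29.7 and 21.9 FPKM in chidamide (log2 fold change 4.04 ± 0.12, adjusted p = 5.7e-08). TUBB4A, a beta tubulin known mainly from brain, was at 0.692 and 0.79 FPKM in DMSO and at 22.7 and 27.5 FPKM in chidamide (3.90 ± 0.088, adjusted p = 2.4e-08). The rest of the 10 largest rises at a mean of at least 5 FPKM were MT2A, IFI6, TEX19, GNG8, SMIM14, ZNF385A, DAPL1 and PLEKHB1, with effects from 3.13 to 4.96. In each of these 10 genes both DMSO libraries lay far below both chidamide libraries. They were named only where the groups did not overlap.

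Replication genes were among the largest falls. The 10 largest at a mean of at least 5 FPKM were CDC45, MCM4, MCM5, E2F2, UNG, CDC25A, TYMS, CDC6, PKMYT1 and MCM7, with effects from −3.33 to −2.46. In DNA replication, the origin recognition complex, CDC6 and CDT1 load the MCM helicase in G1 phase, and CDC45 and the GINS complex turn it on in S phase. CDC45 (chr22:19479459-19520612, plus strand, GRCh38) was at 38.8 and 38.2 FPKM in DMSO and at 2.86 and 3.00 FPKM in chidamide (−3.33 ± 0.054, adjusted p = 1.9e-08). MCM7, a helicase subunit, was at 233 and 244 FPKM in DMSO and at 41.7 and 43.4 FPKM in chidamide (−2.46 ± 0.06, adjusted p = 2.8e-08). CDC6, the loader of the helicase, fell from 21.4 and 20.4 to 2.85 and 2.70 FPKM (−2.54 ± 0.055, adjusted p = 2.2e-08). The groups were far apart for all 3 genes, where a lack of overlap was a condition for naming, and replicates lay close together.

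Of 26 origin licensing and firing genes tested, 25 were called lower and 1 higher, against 31.6% and 43.3% of all genes, and their median effect was −1.75. The exception was ORC4, a subunit of the origin recognition complex, which rose from 4.30 and 4.02 to 7.68 and 7.0 FPKM (0.69 ± 0.067, adjusted p = 2.3e-05). The summed level of the list was 1054 and 1066 FPKM in DMSO and 263 and 268 FPKM in chidamide. All 27 tested DNA polymerases and fork factors were called lower, with a median of −1.35. PCNA, the sliding clamp that holds polymerases on DNA, was at 376 and 371 FPKM in DMSO and at 72.5 and 70.9 FPKM in chidamide (−2.36 ± 0.052, adjusted p = 2.2e-08). CLSPN, which encodes the checkpoint mediator claspin, fell from 21.3 and 19.1 to 3.46 and 3.40 FPKM (−2.26 ± 0.068, adjusted p = 5.7e-08).

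The promoters of 3 of these falling genes are shown because they hold an E2F site. Sequences are RefSeq, build GRCh38.p14, from 250 bases before to 50 bases after the first listed start site, read in the direction of the gene. Capitals mark an E2F site, searched on both strands as TTTCCCGC, TTTGGCGC, TTTCGCGC or TTTGCCGC. CDC25A, shown with MCM7 and CDC6, encodes the phosphatase that activates CDK2, and fell from 13 and 13.4 to 1.18 and 1.31 FPKM (−2.66 ± 0.057, adjusted p = 2.2e-08). The promoter of MCM7 lies at chr7:100101348-100101647, minus strand, that of CDC6 at chr17:40287629-40287928, plus strand, and that of CDC25A at chr3:48188368-48188667, minus strand.
MCM7: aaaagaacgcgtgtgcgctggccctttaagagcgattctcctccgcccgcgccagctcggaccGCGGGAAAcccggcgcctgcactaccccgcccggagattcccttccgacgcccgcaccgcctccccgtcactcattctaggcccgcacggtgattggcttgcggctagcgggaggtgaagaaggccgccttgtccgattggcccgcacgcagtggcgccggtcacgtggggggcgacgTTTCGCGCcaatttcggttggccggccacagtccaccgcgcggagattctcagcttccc
CDC6: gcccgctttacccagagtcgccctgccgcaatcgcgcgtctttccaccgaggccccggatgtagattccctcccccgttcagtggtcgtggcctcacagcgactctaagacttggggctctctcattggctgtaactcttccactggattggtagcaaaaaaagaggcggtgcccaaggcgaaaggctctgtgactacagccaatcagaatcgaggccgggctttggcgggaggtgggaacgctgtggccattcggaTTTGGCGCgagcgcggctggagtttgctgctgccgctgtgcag
CDC25A: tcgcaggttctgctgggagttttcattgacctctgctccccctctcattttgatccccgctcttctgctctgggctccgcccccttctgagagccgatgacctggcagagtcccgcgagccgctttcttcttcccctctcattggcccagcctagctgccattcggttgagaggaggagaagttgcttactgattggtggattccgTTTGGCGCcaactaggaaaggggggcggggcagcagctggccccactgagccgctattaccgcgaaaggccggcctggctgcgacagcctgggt

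The MCM7 promoter held 2 matches, beginning 187 and 9 bases before the start site, the CDC25A promoter 1 match 44 bases before it, and the CDC6 promoter 1 match at base 8 after it. Such a match stood in 3.33% of 27305 promoters, in 5.59% of the 8680 tested genes with a promoter, in 15.2% of 455 genes that fell by at least 1 and in 3.15% of 793 that rose by at least 1. Of 22 origin licensing and firing genes with a promoter, 11 held a match. Among all 8680 genes, the 485 with a match had a median effect of −0.14 and the 8195 without one of 0.09, and 14.2% of the former and 4.71% of the latter fell by at least 1. A match is a description of letters and not a bound site.

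Genes of nucleotide supply and of recombination repair were mostly lower. Of 12 tested genes of deoxynucleotide synthesis, 10 were called lower and 1 higher (median −1.35). TYMS, thymidylate synthase, was at 63.8 and 60.1 FPKM in DMSO and at 8.28 and 10.4 FPKM in chidamide (−2.61 ± 0.09, adjusted p = 9.8e-08). RRM2, the small subunit of ribonucleotide reductase, fell from 53.4 and 50.5 to 8.53 and 8.83 FPKM (−2.45 ± 0.051, adjusted p = 2.2e-08). The gene called higher was SAMHD1, an enzyme that breaks deoxynucleotides down (0.33 ± 0.058, adjusted p = 0.0008). Of 26 tested genes of homologous recombination and Fanconi repair, 25 were called lower and none higher (median −1.12). FANCD2, the central protein of the Fanconi pathway, fell by 2.23 on the log2 scale, and EXO1, a nuclease that resects DNA ends, by 2.10. Mismatch and excision repair was mixed, with 6 of 20 called higher and 12 lower (median −0.26). UNG, which removes uracil from DNA, fell from 45.4 and 45.7 to 6.40 and 6.01 FPKM (−2.69 ± 0.052, adjusted p = 2.1e-08), while ERCC1, of nucleotide excision repair, rose from 5.62 and 5.28 to 10.0 and 9.85 FPKM (0.76 ± 0.072, adjusted p = 1.9e-05).

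Mitotic genes fell together. All 28 tested mitotic kinases, spindle and checkpoint genes were called lower (median −1.37), as were all 21 kinetochore and centromere genes (median −1.29) and 15 of 17 condensin and cohesin genes (median −0.95). Both kinases that hold CDK1 inactive before mitosis were among them. PKMYT1 was at 27.3 and 29.6 FPKM in DMSO and at 3.85 and 4.44 FPKM in chidamide (−2.52 ± 0.096, adjusted p = 1.4e-07), and WEE1 at 18.6 and 18.3 against 3.91 and 4.45 FPKM (−1.91 ± 0.061, adjusted p = 7.2e-08). NCAPH, a condensin subunit, fell by 2.11 on the log2 scale. SPC25, of the NDC80 complex that holds microtubules at the kinetochore, was at 23.3 and 24.4 FPKM in DMSO and 5.05 and 4.84 FPKM in chidamide (−2.07 ± 0.056, adjusted p = 4e-08). CDCA5, or sororin, which keeps sister chromatids together, fell from 42.8 and 43.5 to 7.96 and 8.17 FPKM (−2.28 ± 0.047, adjusted p = 2.2e-08).

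The promoters of CDCA5 (chr11:65083991-65084290, minus strand) and SPC25 (chr2:168890381-168890680, minus strand) are shown for the cell cycle genes homology region, searched as TTTGAA or TTCGAA on both strands and marked in capitals.
CDCA5: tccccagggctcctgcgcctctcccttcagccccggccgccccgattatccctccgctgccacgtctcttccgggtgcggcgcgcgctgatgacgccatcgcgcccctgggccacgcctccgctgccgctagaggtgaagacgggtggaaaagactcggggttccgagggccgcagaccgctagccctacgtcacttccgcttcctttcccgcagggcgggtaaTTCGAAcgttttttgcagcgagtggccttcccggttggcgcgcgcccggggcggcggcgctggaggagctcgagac
SPC25: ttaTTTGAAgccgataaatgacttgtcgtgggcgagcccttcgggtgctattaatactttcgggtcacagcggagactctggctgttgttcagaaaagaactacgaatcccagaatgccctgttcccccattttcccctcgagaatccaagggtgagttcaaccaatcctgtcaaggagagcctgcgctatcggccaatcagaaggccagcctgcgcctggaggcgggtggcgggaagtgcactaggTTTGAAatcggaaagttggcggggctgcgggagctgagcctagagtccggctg

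The match lay 26 bases before the start site of CDCA5, and the 2 matches of SPC25 lay 247 and 3 bases before its start. This motif stood in 16.6% of all promoters, 11.1% of those of tested genes, 25.7% of those that fell by at least 1 and 10.3% of those that rose by at least 1. Of 21 mitotic genes with a promoter, 15 held it (71.4%) and none held an E2F site. The 962 tested genes with the motif had a median effect of −0.04 and the 7718 without it of 0.09.

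**Figure D2:**
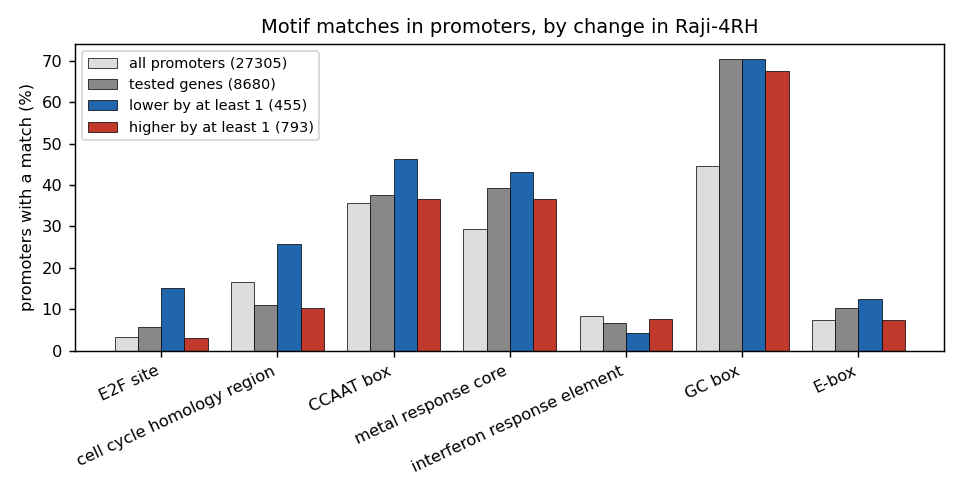
Bars give the share of promoters in percent that hold each of 7 short motifs, for all 27305 promoters, for 8680 tested genes, for 455 genes that fell by at least 1 on the log2 scale and for 793 that rose by at least 1 in Raji-4RH. E2F sites stood in 15.2% and cell cycle genes homology regions in 25.7% of the promoters of the falling genes, against 5.59% and 11.1% of tested genes, and the GC box in 70.5% of both.

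Regulators of the cycle moved both ways. Of 10 tested CDK inhibitors and pocket proteins, 6 were called higher and 3 lower (median 0.55). RBL1, the pocket protein p107, fell from 8.34 and 8.0 to 3.71 and 4.14 FPKM (−0.90 ± 0.062, adjusted p = 3.1e-06). CDKN2A, which encodes p16 and ARF, was at 24.6 and 26.1 FPKM in DMSO and at 17.0 and 16.5 FPKM in chidamide (−0.57 ± 0.072, adjusted p = 0.00013). MYC, which drives growth in Burkitt lymphoma, was at 186 and 198 FPKM in DMSO and at 151 and 181 FPKM in chidamide (−0.21 ± 0.089, adjusted p = 0.0586) and was not called, although the groups did not overlap. Its effect was −0.34 without chidamide replicate 2 and 0.01 after quantile normalization. MYC was called lower in centred libraries and in limma voom on recovered reads. Within the MYC and MAX network, where MXD proteins compete with MYC for MAX, MXD4 was at 3.17 and 3.46 FPKM in DMSO and at 18.6 and 19.3 FPKM in chidamide (2.21 ± 0.074, adjusted p = 8.5e-08). MXI1 rose by 0.80 ± 0.059, and MLX fell by 0.49.

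Among 24 genes listed as linked to p53 and stress 21 were tested, of which 15 were called higher and 5 lower (median 0.73). SESN3, a sestrin that restrains mTORC1, was at 1.25 and 1.17 FPKM in DMSO and at 17.5 and 17.6 FPKM in chidamide (3.07 ± 0.056, adjusted p = 2.1e-08). TP53INP1, a stress-induced nuclear protein, rose from 2.03 and 1.74 to 18.6 and 20.6 FPKM (2.84 ± 0.078, adjusted p = 4e-08). SESN2, another sestrin, went the other way from SESN3, from 17.1 and 16.5 to 7.91 and 8.27 FPKM (−0.97 ± 0.059, adjusted p = 1.5e-06). Replicates differed little in these genes, and a lack of overlap between the groups was a condition for naming them.

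Chromatin genes were mixed. Of 13 replacement, linker and clustered histone genes tested, 10 were called higher and 3 lower (median 1.37, and 0.92 after quantile normalization). In centred libraries 7 were called higher and 3 lower. Among labels that share a row with their values the list median was negative. The rises included the clustered genes HIST1H2BK, HIST1H2BD, HIST1H2AC, HIST2H2BE and HIST3H2A. Of the replacement variants, H2AFV, H3F3A and H3F3B were called higher and H2AFZ, H2AFX and H2AFY lower. The summed level of the list was 547 and 565 FPKM in DMSO and 567 and 576 FPKM in chidamide. H1FX, the linker histone H1.10, was at 32.6 and 34.3 FPKM in DMSO and at 142 and 163 FPKM in chidamide (2.15 ± 0.079, adjusted p = 1.3e-07). The falling histones included H2AFZ, the variant H2A.Z.1, with 219 and 223 against 105 and 100 FPKM (−1.10 ± 0.058), and H2AFY, macroH2A1, which fell by 1.12 on the log2 scale. Histone chaperones and chromatin assembly factors were mostly lower, 16 of 20, with 2 higher (median −1.02). CHAF1A, the large subunit of the assembly factor that follows the fork, fell from 36.6 and 37.4 to 7.80 and 8.16 FPKM (−2.08 ± 0.066, adjusted p = 6.6e-08), while ATRX rose by 0.64 ± 0.054.

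Of 18 acetyltransferases and bromodomain readers, 5 were called higher and 10 lower (median −0.30, and −0.19 without chidamide replicate 1). NCOA3, a coactivator, went up from 60.9 and 57.0 to 122 and 126 FPKM (1.06 ± 0.054), and the acetyltransferase KAT2A, or GCN5, down from 46.2 and 47.8 to 26.3 and 30.4 FPKM (−0.71 ± 0.07). Of 19 DNA methylation and polycomb genes, 7 were called higher and 9 lower, where 43.3% and 31.6% of all genes were. The list median of −0.07 was −0.02 without DMSO replicate 1, −0.12 without DMSO replicate 2 and −0.19 after quantile normalization. JARID2, a cofactor of the polycomb complex PRC2, rose from 0.284 and 0.243 to 2.88 and 3.13 FPKM (1.66 ± 0.076, adjusted p = 3.4e-07). PHF19, another PRC2 cofactor, fell from 17.7 and 17.5 to 3.47 and 4.26 FPKM (−1.94 ± 0.076, adjusted p = 1.6e-07). EZH2, the methyltransferase of PRC2, had overlapping values of 30.0 and 28.0 FPKM in DMSO and 27.1 and 28.0 FPKM in chidamide (−0.07 ± 0.062, adjusted p = 0.33), and its effect was 0.16 after quantile normalization.

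**Figure D3:**
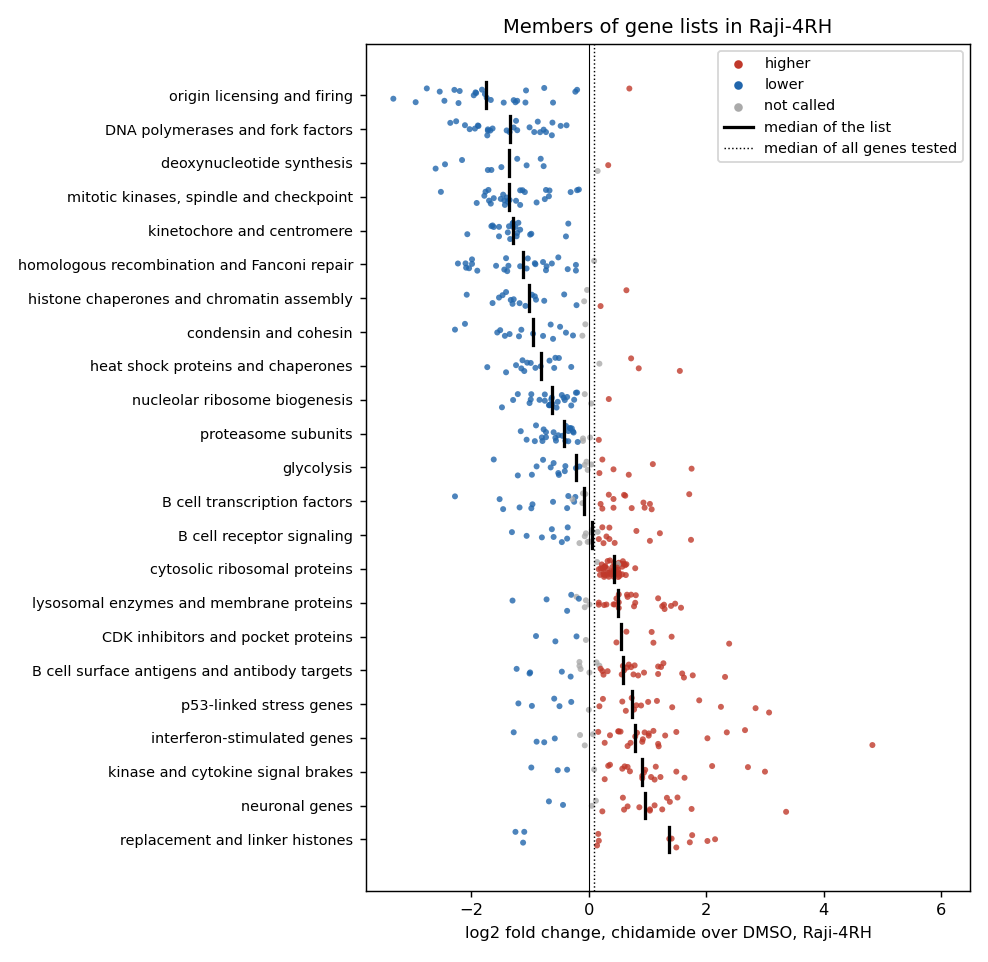
Each point is a tested member of the gene list named on the left, placed by its log2 fold change in Raji-4RH, chidamide over DMSO. Red members were called higher, blue lower and grey were not called, black bars are list medians and the dotted line is the median of all genes tested, 0.093. Replication, recombination repair and mitotic lists lie almost wholly to the left, and ribosomal protein, lysosome, signal brake and histone lists mostly to the right. Members under the filter are not drawn. This leaves out 27 of 45 neuronal and 10 of 41 interferon-stimulated genes placed, and low genes of the signal brake, lysosome and other lists. The replacement and linker histone list also holds clustered histone genes.

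Protein synthesis and folding genes split. Of 29 tested genes of nucleolar ribosome biogenesis, 26 were called lower and 1 higher (median −0.63). TCOF1, treacle, which supports ribosomal RNA transcription, fell from 23.9 and 24.8 to 8.0 and 8.11 FPKM (−1.48 ± 0.05, adjusted p = 9.1e-08), and NOLC1 fell by 1.29 on the log2 scale. Of 50 cytosolic ribosomal protein genes, 48 were called higher and none lower (median 0.43), and 37 were called higher and none lower after quantile normalization (median 0.29). Their summed level was 24686 and 24457 FPKM in DMSO and 37041 and 30412 FPKM in chidamide, so that the chidamide replicates differed by much of the size of the rise. RPS27 showed this most, with 1729 and 1591 FPKM in DMSO and 3847 and 2132 FPKM in chidamide (0.79 ± 0.22, adjusted p = 0.0111), and its effect was 0.36 without chidamide replicate 1, 1.21 without chidamide replicate 2 and not called without DMSO replicate 2 (adjusted p = 0.0644). Ribosomal protein genes have many processed copies in the genome, and reads shared with them are counted in a way that is not given in the sources used here.

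Of 23 heat shock proteins and chaperones listed 19 were tested, of which 15 were called lower and 3 higher (median −0.82). HSP90AA1, the inducible HSP90, was at 472 and 469.8 FPKM in DMSO and 171 and 182 FPKM in chidamide (−1.41 ± 0.068, adjusted p = 4.5e-07), and HSPH1, the large chaperone HSP105, fell by 1.73 on the log2 scale. HSPB1, the small chaperone HSP27, rose from 49.0 and 55.1 to 137 and 173 FPKM (1.55 ± 0.11, adjusted p = 2.9e-06). Of 28 proteasome subunits, 24 were called lower and 1 higher (median −0.43), and PSMB5, the subunit with chymotrypsin-like activity, fell from 46.4 and 45.8 to 21.7 and 21.4 FPKM (−1.06 ± 0.048). Of 30 genes of the unfolded protein and integrated stress responses, 18 were called lower and 10 higher (median −0.43). CHAC1, a glutathione-degrading target of ATF4, fell from 16.2 and 15.5 to 3.26 and 3.56 FPKM (−1.93 ± 0.10, adjusted p = 7.3e-07), and PSAT1, of serine synthesis, by 1.51 on the log2 scale, while ATF3 rose from 0.713 and 0.689 to 2.39 and 2.61 FPKM (1.04 ± 0.074).

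Metabolic genes moved less as groups. Of 23 glycolysis genes, 13 were called lower and 6 higher (median −0.22). LDHA, lactate dehydrogenase A, was at 209 and 211 FPKM in DMSO and at 68.6 and 66.9 FPKM in chidamide (−1.62 ± 0.056, adjusted p = 9.9e-08), and HK2, hexokinase 2, at 37.7 and 38.5 against 16.4 and 15.3 FPKM (−1.21 ± 0.054). ENO2, the neuronal enolase, rose from 0.125 and 0.154 to 2.80 and 2.88 FPKM (1.75 ± 0.087). Of 33 genes of the tricarboxylic acid cycle and complex I, 21 were called lower and 4 higher (median −0.25, and −0.04 after quantile normalization). Cholesterol and fatty acid synthesis had 11 of 31 called higher and 12 lower, with a median of 0.02 that turned to −0.06 when libraries were centred on their medians and to −0.07 without chidamide replicate 2. FASN, fatty acid synthase, fell from 73.3 and 76.5 to 26.6 and 36.8 FPKM (−1.23 ± 0.13, adjusted p = 4.5e-05), and MSMO1, a sterol oxidase, rose by 0.99 ± 0.066.

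Lysosomal genes mostly rose. Of 38 listed 32 were tested, of which 23 were called higher and 5 lower (median 0.49), and their summed level went from 553 and 559 FPKM in DMSO to 1050.2 and 1240.1 FPKM in chidamide. Much of that sum was PSAP, the precursor of the saposins that help degrade sphingolipids, with 225 and 227 FPKM in DMSO and 606 and 745 FPKM in chidamide (1.57 ± 0.089, adjusted p = 9.7e-07). GRN, progranulin, rose from 18.7 and 18.3 to 43.6 and 63.9 FPKM (1.47 ± 0.15, adjusted p = 2.7e-05). GLA, alpha-galactosidase, was among those that fell, from 12.3 and 11.7 to 4.19 and 4.36 FPKM (−1.30 ± 0.09, adjusted p = 3.1e-06).

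**Figure D4:**
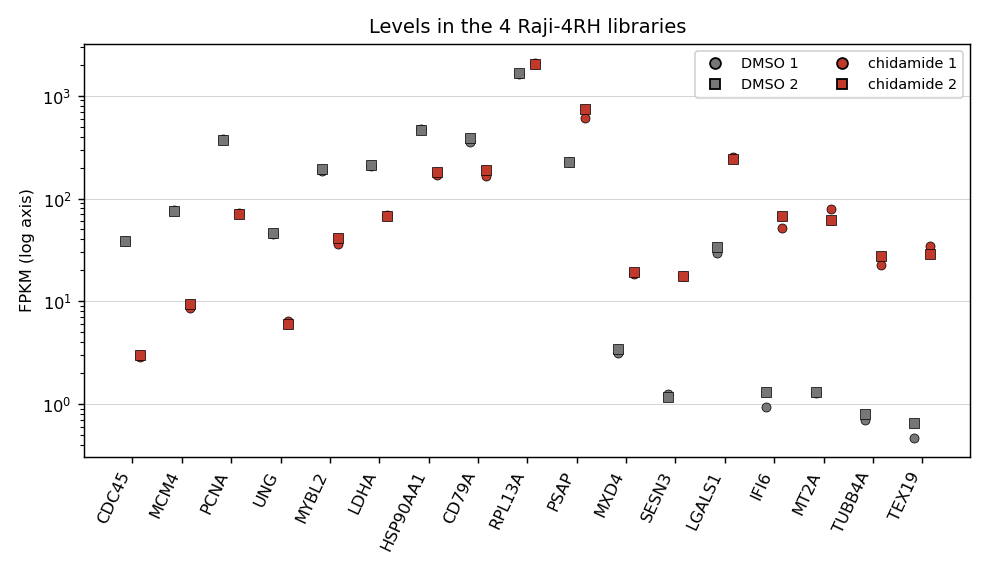
Levels in FPKM, on a log axis, of 17 genes in the 4 Raji-4RH libraries, grey for DMSO and red for chidamide, with circles for replicate 1 and squares for replicate 2. Replicates lie close together, and the groups are separate for each gene shown, from CDC45 with 38.8 and 38.2 against 2.86 and 3.00 FPKM to MT2A with 1.27 and 1.31 against 79.7 and 61.9 FPKM.

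The largest effect of all tested at a mean of at least 5 FPKM was that of MT2A, a metallothionein, one of the small proteins that bind zinc and copper. MT2A (chr16:56608199-56609497, plus strand, GRCh38) was at 1.27 and 1.31 FPKM in DMSO, which is 31 and 36 reads, and at 79.7 and 61.9 FPKM in chidamide (4.96 ± 0.10, adjusted p = 2.2e-08). Its mean was 54.9-fold higher in chidamide. Metal-responsive transcription is carried by MTF1 through short metal response elements. The RefSeq promoter of MT2A (chr16:56608334-56608633, plus strand, GRCh38.p14) is shown with the core letters TGCACNC or TGCGCNC, on both strands, in capitals.
MT2A: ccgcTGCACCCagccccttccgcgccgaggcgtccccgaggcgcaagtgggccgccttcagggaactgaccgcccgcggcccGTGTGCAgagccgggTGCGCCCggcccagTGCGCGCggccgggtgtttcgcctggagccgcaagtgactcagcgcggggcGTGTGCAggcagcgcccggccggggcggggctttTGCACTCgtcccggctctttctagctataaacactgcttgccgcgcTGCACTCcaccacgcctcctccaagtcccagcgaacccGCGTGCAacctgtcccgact

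The MT2A promoter held 8 such cores, which stood at least once in 29.3% of all promoters and in 39.3% of those of tested genes. The same core stood in 4 of the 10 promoters of the metallothionein and zinc list, of whose 20 genes 12 were tested and 6 were called higher and 3 lower (median 0.21). SLC39A4, a zinc importer, was one that fell, from 9.45 and 9.38 to 4.77 and 7.08 FPKM (−0.61 ± 0.14, adjusted p = 0.00343, and −0.37 without chidamide replicate 1). Metallothionein genes are close copies of each other, and how reads shared among them were counted is not given in the sources used here.

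Interferon-stimulated genes include IFI6, with the second largest effect at a mean of at least 5 FPKM. IFI6, which encodes a membrane protein with antiviral activity, was at 0.925 and 1.31 FPKM in DMSO and at 51.6 and 67.0 FPKM in chidamide (4.83 ± 0.13, adjusted p = 4e-08). OAS1, the sensor that makes oligoadenylates on viral RNA, rose from 1.43 and 1.60 to 12.8 and 17.2 FPKM (2.66 ± 0.12, adjusted p = 2.8e-07). Of 43 members listed 31 were tested, of which 24 were called higher and 4 lower (median 0.79), while the summed level of the list moved only from 313 and 316 FPKM to 415 and 454 FPKM. The promoter of IFI6 (chr1:27672143-27672442, minus strand, GRCh38.p14) is shown with the interferon-stimulated response element core, GAAANNGAA on both strands, in capitals.
IFI6: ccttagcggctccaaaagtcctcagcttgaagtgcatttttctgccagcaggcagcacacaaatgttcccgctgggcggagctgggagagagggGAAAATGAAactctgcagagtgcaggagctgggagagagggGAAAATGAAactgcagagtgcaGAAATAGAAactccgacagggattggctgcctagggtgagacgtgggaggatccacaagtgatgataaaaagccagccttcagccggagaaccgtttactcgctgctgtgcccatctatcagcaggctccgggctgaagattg

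The IFI6 promoter held 3 cores, beginning 156, 115 and 93 bases before the start site. The core stood in 8.29% of all promoters, 6.58% of those of tested genes, 16 of 23 in this list (69.6%), 7.57% of those of genes that rose by at least 1 and 4.18% of those that fell by at least 1.

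Among immune signaling genes, TNFAIP3, CCR7 and RGS1 rose. Of 19 NF-kB subunits and feedback genes, 12 were called higher and 4 lower (median 0.26), where 43.3% and 31.6% of all genes were. TNFAIP3, the ubiquitin-editing inhibitor A20, was at 1.92 and 1.82 FPKM in DMSO and at 8.72 and 9.15 FPKM in chidamide (1.79 ± 0.064, adjusted p = 1.2e-07), and BIRC3, an inhibitor of apoptosis that is an NF-kB target, rose by 1.18 ± 0.066. NFKBIB, the inhibitor IkB beta, fell from 27.4 and 30.6 to 14.9 and 16 FPKM (−0.87 ± 0.071). Of 35 chemokine, cytokine and receptor genes listed 18 were tested, of which 12 were called higher and 3 lower, with a median of 0.36 that became −0.01 after quantile normalization, 0.54 without chidamide replicate 1 and 0.78 in limma voom on recovered reads. Since 17 members were not tested, the count supports nothing about the list. CCR7, which guides B cells to lymph nodes, rose from 0.489 and 0.433 to 6.44 and 6.99 FPKM (2.40 ± 0.066, adjusted p = 4e-08). Of 33 brakes on kinase and cytokine signals listed 24 were tested, of which 20 were called higher and 3 lower (median 0.91), led by RGS1, which shortens signals of G protein-coupled receptors, with 1.17 and 0.894 against 14.5 and 15.9 FPKM (3.00 ± 0.078, adjusted p = 3.8e-08), and by the ERK phosphatase DUSP5, which rose by 2.71 ± 0.083. RGS13, a germinal centre relative of RGS1, fell from 19.0 and 19.3 to 9.34 and 9.14 FPKM (−0.98 ± 0.072).

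B cell surface genes are of interest in a line selected by an antibody. Of 33 surface antigens and antibody targets tested, 22 were called higher and 5 lower (median 0.58, and 0.37 after quantile normalization). MS4A1, which encodes CD20, the target of rituximab, was at 12.5 and 12.9 FPKM in DMSO and at 22.0 and 25.3 FPKM in chidamide (0.84 ± 0.079, adjusted p = 1.9e-05), with no overlap. CD22, another antibody target, moved little, from 51.3 and 52.3 to 56.4 and 67.5 FPKM (0.25 ± 0.081, adjusted p = 0.0213). It was not called without DMSO replicate 1 (adjusted p = 0.0981) or DMSO replicate 2 (adjusted p = 0.0721), and its effect was 0.38 without chidamide replicate 1 and 0.12 without chidamide replicate 2. CD38, a surface enzyme and antibody target, rose from 4.09 and 4.06 to 14.3 and 14.9 FPKM (1.62 ± 0.053, adjusted p = 8.2e-08), and FCER2, the low-affinity IgE receptor CD23, from 0.0653 and 0.0193 to 3.76 and 4.70 FPKM (2.32 ± 0.084, adjusted p = 1.2e-07). CD48, a ligand of CD244, fell from 27.3 and 26.8 to 10.8 and 11.1 FPKM (−1.23 ± 0.051, adjusted p = 2.2e-07). Rituximab acts in part through complement, and of 14 complement receptors and regulators listed 9 were tested, of which 7 were called higher and 1 lower (median 0.57). CD59, which blocks the membrane attack complex, was at 3.42 and 4.18 FPKM in DMSO and at 9.73 and 8.77 FPKM in chidamide (1.10 ± 0.084, adjusted p = 5.4e-06).

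Inside the B cell receptor pathway 11 of 28 genes were called higher and 8 lower, near the 43.3% and 31.6% of all genes. The list median of 0.05 turned to −0.03 in centred libraries and was 0.13 after quantile normalization. CD79A, a signaling chain of the receptor, was at 357 and 385 FPKM in DMSO and at 166 and 189 FPKM in chidamide (−1.06 ± 0.077, adjusted p = 4.1e-06), and the adaptor BLNK at 11.5 and 11.6 against 3.87 and 4.29 FPKM (−1.31 ± 0.058, adjusted p = 3.1e-07). FCGR2B, the inhibitory Fc receptor of B cells, rose from 0.232 and 0.184 to 2.97 and 3.09 FPKM (1.74 ± 0.067, adjusted p = 1.5e-07). Of 29 costimulatory and checkpoint genes listed 16 were tested, of which 12 were called higher and 2 lower (median 0.63), and 8 were higher and 2 lower after quantile normalization (median 0.18). The median was 1.28 in limma voom on recovered reads. Among them were TNFSF9, the ligand of 4-1BB, up from 9.48 and 9.98 to 32.8 and 40.0 FPKM (1.79 ± 0.09) and CD86 up by 1.18 ± 0.058. Of 29 MHC class I and antigen processing genes listed 17 were placed and 14 tested, of which 9 were called higher and 1 lower (median 0.50).

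B cell transcription factors did not move as a group, with 13 of 28 called higher, 11 lower and a median of −0.08 that became 0.17 after quantile normalization. MYBL2, a cell cycle transcription factor, fell from 186 and 195 to 35.7 and 41.5 FPKM (−2.28 ± 0.072, adjusted p = 6.6e-08), and IKZF3, the lymphoid factor Aiolos, from 28.1 and 27.0 to 8.91 and 9.03 FPKM (−1.52 ± 0.05, adjusted p = 8.3e-08). Of 9 germinal centre markers 5 were called higher and 4 lower, and BCL6, their master repressor, was at 33.1 and 32.9 FPKM in DMSO and 37.4 and 40.5 FPKM in chidamide (0.23 ± 0.055, adjusted p = 0.00465). Of 7 plasma cell markers tested 4 were called higher and 2 lower. PRDM1, the plasma cell regulator BLIMP1, rose from 0.0753 and 0.0667 to 1.25 and 1.16 FPKM (1.04 ± 0.056), and XBP1 rose by 0.60 ± 0.067, while MZB1, which helps secrete antibody, fell by 0.87 on the log2 scale. Of 12 ID proteins and helix-loop-helix repressors listed, which hold back E proteins and other factors, 9 were tested, of which 7 were called higher and none lower (median 0.92), with ID2 at 15.4 and 15.3 against 61.0 and 76.3 FPKM (2.08 ± 0.11, adjusted p = 8.2e-07).

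Of 17 genes of the BCL2 family, 8 were called higher and 4 lower (median 0.32, and 0.19 after quantile normalization). These counts lie near the shares of all genes, 43.3% higher and 31.6% lower. Of 25 death receptors, caspases and IAPs, 16 were called higher and 3 lower (median 0.40), but 13 higher and 6 lower after quantile normalization (median 0.20), and the median was 0.63 in limma voom on recovered reads. BMF, a BH3-only protein that promotes apoptosis, was at 12.9 and 12.3 FPKM in DMSO and at 46.7 and 51.7 FPKM in chidamide (1.88 ± 0.066, adjusted p = 1.1e-07), and BBC3, or PUMA, at 4.49 and 5.39 against 12.1 and 15.2 FPKM (1.29 ± 0.11, adjusted p = 1.3e-05). Other promoters of apoptosis fell. BID was at 16.4 and 17.3 FPKM in DMSO and at 8.41 and 8.85 FPKM in chidamide (−0.89 ± 0.06, adjusted p = 2.6e-06), and BIK, also BH3-only, fell by 0.54 on the log2 scale.

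Of 25 ABC transporters listed 18 were tested, of which 11 were called higher and 2 lower (median 0.27). ABCB1, the drug efflux pump P-glycoprotein, rose from 0.909 and 0.991 to 5.47 and 6.25 FPKM (1.81 ± 0.075, adjusted p = 2.1e-07), and the lipid transporter ABCA2 from 0.389 and 0.451 to 7.16 and 9.82 FPKM (2.73 ± 0.13, adjusted p = 3.6e-07). Of 45 cytoskeleton, galectin and S100 genes listed 38 were tested, of which 22 were called higher and 11 lower (median 0.52, and 0.31 after quantile normalization). LGALS1, galectin-1, was at 29.6 and 33.7 FPKM in DMSO and at 255 and 242 FPKM in chidamide (2.94 ± 0.08, adjusted p = 4e-08). TUBA1B, the main alpha tubulin of cycling cells, fell from 318 and 319 to 128 and 164 FPKM (−1.13 ± 0.10), opposite to TUBB4A. Of 29 adhesion genes listed 20 were tested, of which 12 were called higher and 4 lower (median 0.73), and ITGA6, a laminin receptor chain, rose by 1.66 ± 0.069, whereas CD81, a tetraspanin of B cells, fell from 28.9 and 28.8 to 14.5 and 18.0 FPKM (−0.80 ± 0.089).

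Genes of other tissues appeared at low levels. Of 46 neuronal genes listed 45 were placed and 18 reached the filter, of which 14 were called higher and 2 lower, and the count supports nothing about the list. SYT11, a synaptotagmin, was at 0.0305 and 0.045 FPKM in DMSO and at 9.03 and 10.3 FPKM in chidamide (3.36 ± 0.079, adjusted p = 2.8e-08). Of 42 germline and cancer-testis genes listed 39 were placed and 5 reached the filter, 3 called higher and none lower. This count supports nothing about the list either, and its median of 0.45 became −0.10 after quantile normalization. TEX14, a testis gene of cell bridges, rose from 0.19 and 0.159 to 2.19 and 2.00 FPKM (1.40 ± 0.063). Of 11 myeloid markers placed 5 were tested and all 5 were called higher. As low genes passed the filter only where they were high, this count supports nothing about the markers. The summed level over all 11 was 1.54 and 1.42 FPKM in DMSO and 13.3 and 12.7 FPKM in chidamide. LYZ, lysozyme, made up part of it with 0.151 and 0.134 against 4.13 and 4.06 FPKM (2.16 ± 0.054, adjusted p = 3.5e-08), while MPO and FCN1, both defining myeloid genes, were listed at 0 in DMSO and at 0.185 FPKM or less in chidamide. Of 19 T and NK cell markers placed 8 were tested, 6 called higher and 1 lower, a count with the same limit. The summed levels over all 19 were 81.1 and 83.4 FPKM in DMSO and 122 and 126 FPKM in chidamide. Of these sums LCK, a kinase best known from T cells, gave 43.4 and 42.8 FPKM in DMSO and 54.4 and 48.7 FPKM in chidamide. CD3D, CD2 and GZMB were listed at 0 in both DMSO libraries and stayed under 1 FPKM in chidamide. HBA2, an alpha globin gene that the filter left out, was at 12.9 FPKM in chidamide replicate 1 and at 0.444 FPKM in replicate 2. The part of other cells in the results above was not tested.

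The same treatment of parental Raji gave an effect in the same direction for most of these genes. Of the 8022 genes called in Raji-4RH, 4962 were called in the same direction in Raji, 371 in the opposite direction and 2689 were not called, where 60.0% of all genes were called. Of the 1079 genes that rose by at least 1 in Raji-4RH, 803 were called higher and 16 lower in Raji, where 31.5% of all genes were called higher, and their median effect was 1.35 in Raji-4RH and 0.61 in Raji. Of the 541 that fell by at least 1, 498 were called lower and 5 higher in Raji, where 28.5% were called lower, with medians of −1.26 and −0.61. Since these genes were chosen by their size in Raji-4RH, a smaller median in Raji follows in part from the choice. The difference of the effects itself, tested as an interaction, was called for 5231 genes (48.8%). Of the rises it was called and larger in Raji-4RH for 859 and smaller for 48, and of the falls larger for 493 and smaller for 3. As these genes were chosen by their size in Raji-4RH, the surplus of larger effects there also follows in part from the choice. Of 26 origin licensing and firing genes, 22 had a called negative difference and 1 a called positive one, with medians of −1.75 in Raji-4RH and −0.67 in Raji, against 21.7% and 27.2% of all genes.

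Single genes differed more widely. TUBB4A was at 0.0364 ± 0.0312 FPKM (SD, n = 2) in Raji DMSO and 0.0487 ± 0.00948 FPKM in Raji chidamide, so that its rise in Raji-4RH had no counterpart above 1 FPKM (difference of effects 3.88 ± 0.12, adjusted p = 1.4e-06). CD38 was already high in Raji, at 33.0 ± 1.19 FPKM in DMSO and 32.3 ± 0.996 FPKM in chidamide, and rose only in Raji-4RH, from a lower level (difference 1.65 ± 0.076, adjusted p = 4.4e-06). WEE1 was at 16.5 ± 0.0743 and 14.8 ± 0.367 FPKM in Raji (difference −1.76 ± 0.087, adjusted p = 5.5e-06), and EXO1 at 9.13 ± 0.411 and 8.03 ± 0.467 FPKM (difference −1.94 ± 0.088, adjusted p = 4.4e-06). In the other direction, CCR7 rose further in Raji, to 72.2 ± 4.57 FPKM (difference −1.58 ± 0.094, adjusted p = 1.1e-05), but started higher there, at 3.64 ± 0.0794 FPKM, and the difference was −0.46 and not called in limma voom on the recovered reads (adjusted p = 0.229). MT2A started from 37.9 ± 1.49 FPKM in Raji DMSO and reached 100.0 ± 2.19 FPKM (difference 3.58 ± 0.14, adjusted p = 3e-06). The untreated levels of several of these genes differed between the lines, and the part of that in the difference of effects was not tested.

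For 371 genes both effects were called in opposite directions. The most negative differences at a mean of at least 5 FPKM were those of ASB2, a ubiquitin ligase subunit, HIVEP3, a zinc finger protein, IL32, a cytokine, and SCIMP, an adaptor of MHC class II signaling. ASB2 was at 52.6 and 49.7 FPKM in Raji-4RH DMSO and 27.4 and 34.6 FPKM in Raji-4RH chidamide, but at 0.612 ± 0.0438 and 4.28 ± 0.0797 FPKM in Raji (difference −2.42 ± 0.14, adjusted p = 1e-05). IL32 fell from 47.3 and 49.3 to 29.4 and 31.1 FPKM in Raji-4RH and rose from 0.421 ± 0.0604 to 2.73 ± 0.394 FPKM in Raji (difference −2.05 ± 0.11, adjusted p = 9.2e-06). Both genes were high in untreated Raji-4RH and low in untreated Raji, and with chidamide the levels of the lines lay nearer to each other. The most positive differences were those of GNG7, a G protein subunit, PHOSPHO1, METRNL, VPREB3, a chaperone-like protein of B cell precursors, and RGCC. GNG7 rose from 8.34 and 8.76 to 35.5 and 35.8 FPKM in Raji-4RH and was at 33.7 ± 2.10 and 28.8 ± 0.156 FPKM in Raji (difference 2.16 ± 0.081, adjusted p = 2.3e-06). VPREB3 rose from 15.6 and 16.7 to 42.8 and 41.3 FPKM in Raji-4RH and fell from 42.3 ± 0.916 to 28.4 ± 2.84 FPKM in Raji (difference 1.89 ± 0.10, adjusted p = 8.9e-06). For GNG7 and VPREB3, untreated Raji-4RH was the lower line, and with chidamide its level came close to that of untreated Raji. RGCC was not called in Raji-4RH after quantile normalization (adjusted p = 0.0718).

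**Figure D5:**
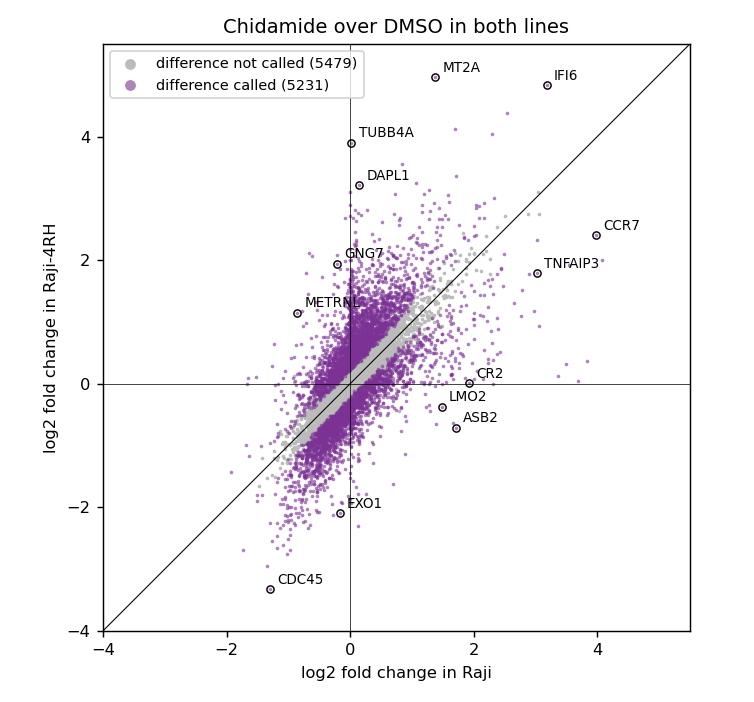
Each of the 10710 tested genes is placed by its log2 fold change, chidamide over DMSO, in Raji on the x axis and in Raji-4RH on the y axis, with equal effects on the diagonal. Purple genes are the 5231 whose difference between the lines was called and grey genes are the others. MT2A and TUBB4A lie far above the diagonal, and CCR7 and ASB2 below it.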

How the data were processed

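RNA-seq was analyzed in 4 libraries of Raji-4RH cells, with the 4 Raji libraries in the same fit. The authors deposited FPKM values per gene and library. The submitters' processing notes name HISAT2 2.0.5, SAMtools 1.7, HTSeq 0.9.1, DESeq2 1.22.2 and the build GRCh38 (hg38), without roles, and the counting of reads that match several genes, and of strand, is not given in the sources used here. Multiplied by gene length and library total, 100% of the values above 0 were whole, within a tolerance of 0.01 times the square root of the reads. For genes with many reads that tolerance admits any value, so the share says nothing there. Totals were 13991697 to 21193441 reads. The last 662 rows repeat the first 662, which left 63305 rows of values for 63967 labels. Labels as far as row 6234 share a row with their values. Later labels took values from 1 to 14 rows below, in stretches of 1 distance, with FPKM rescaled by the ratio of the gene lengths. In all, 18143 labels (28.4%), as far as label row 18171, were placed with 90.75% to 92.62% of the reads, and labels after that row are not analysed here. The placing was checked with genes of abundant families: the distance used was the best one in all 4 stretches with at least 10 such genes. The other stretches held too few to check. At distance 13, with 2 such genes, another distance did better (100.0% against 50.0% high), and at distances 9 and 11 another did as well. Genes of these stretches stay in the counts.

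Differences were tested with limma 3.58.1 (lmFit, eBayes with trend) in R 4.3.3 on log2(FPKM + 1), in 1 fit of the 4 group means over 8 libraries (4 residual degrees of freedom), for the 10710 genes that reached 1 FPKM in 2 or more libraries, with Benjamini-Hochberg adjustment. The contrasts were chidamide against DMSO in each line and the difference of these effects. An exact permutation test of 2 against 2 libraries cannot go below a two-sided p of 0.333, so none was used. The script was tested on simulated data. Named genes were the 10 largest rises and falls with a mean of at least 5 FPKM, up to 2 rises and 2 falls a list with a mean of at least 1 FPKM, both with no overlap between the groups and at least 20 label rows from the end of a stretch, the genes of the study and cell markers, up to 2 uncalled members with the highest mean in lists of mixed direction, and the 5 most positive and 5 most negative differences among genes called in opposite directions. Members and lists were chosen with earlier results of these data known. Genes in the stretches of distance 6, 9, 11 and 13 were left unnamed, and some genes that the rule names are not reported here. Gene positions are from GENCODE v29 and promoters from RefSeq (GRCh38.p14, first start site listed, matched by symbol for 8680 of 10710 genes).

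Alternatives were quantile normalization, median-centred libraries, a mean of 1 FPKM or more, no filter, a pseudocount of 0.1, limma without trend, a replicate block, limma voom on recovered reads, rows as deposited, labels that share a row with their values, labels away from the ends of stretches, Raji-4RH libraries alone, libraries thinned to the smallest total, a log2 fold change of at least 1, and each library left out. Leaving out stretches with fewer than 10 family genes, and protein-coding genes alone, were added after seeing the data. Python 3.11.15 with pandas 2.3.3, numpy 2.4.6 and matplotlib 3.10.9 was used.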

Additional observations from a re-analysis of the deposited data

Results flagged for a closer look

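The effect of chidamide in Raji-4RH differed from that in Raji, by the interaction test of limma, for 5231 genes, and 15 of the genes described above are among them. The effect in Raji-4RH less that in Raji was, in log2 units, 3.58 for MT2A, 3.88 for TUBB4A and 1.65 for CD38, which rose more in Raji-4RH. It was −1.94 for EXO1 and −1.76 for WEE1, which fell more in Raji-4RH. For CCR7 it was −1.58, a smaller rise from a lower level. Among genes called in opposite directions, the difference was −2.42 for ASB2, −2.29 for HIVEP3, −2.05 for IL32 and −2.02 for SCIMP, and it was 2.16 for GNG7, 2.03 for PHOSPHO1, 2.01 for METRNL, 1.89 for VPREB3 and 1.88 for RGCC.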

How the results depend on the processing

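Of the counts over all genes, 106 stayed within 1.5 times under the alternatives and 9 moved further. Of those 9, 5 came from labels that share a row with their values. List medians were less stable. After quantile normalization 35 moved by at least the SD between replicates and 10 did not. In centred libraries 30 moved and 15 did not, and among labels that share a row with their values 34 moved and 11 did not. Without a filter 7077 genes were called higher. The number with a log2 fold change of 1 or more was 2469 with a pseudocount of 0.1 and 2602 in limma voom on recovered reads. Asking for a log2 fold change of at least 1 left 1620 genes called. With the Raji-4RH libraries alone, 7312 of 10297 genes tested were called (71.0%). Among labels that share a row with their values, where only 4331 genes could be tested, 3326 were called, 1819 higher and 1507 lower. Of the 4331 tested, 634 changed by at least 1 and 2178 differed between the lines. The median of replacement, linker and clustered histones was −0.49 there, the reverse of the 1.37 over all placed labels. With each library left out, 7168 to 8087 genes were called, 4163 to 4740 higher and 2984 to 3519 lower, 1620 to 1688 changed by at least 1, and 4044 to 6042 differed between the lines.

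Quantile normalization turned the uncalled effects of EZH2 to 0.16 and MYC to 0.01, ended the call of RGCC in Raji-4RH (0.21, adjusted p = 0.0718) and shrank the effects of PRDM1 to 0.28, ATF3 to 0.55, TEX14 to 0.82, BIK to −0.24, IL32 to −0.41, ASB2 to −0.46, RPLP0 to 0.23 and CD79B to 0.15. It raised those of SAMHD1 to 0.50, CD22 to 0.55, BCL6 to 0.49 and LCK to 0.55. In centred libraries CD79B (0.16) and CD22 (0.17) were not called, and MYC (−0.29) was, as also in limma voom on recovered reads. The cause was not tested.

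In the rows as deposited, where a label beyond row 6234 stands beside the values of another gene, effects reversed for GNG8 (−0.99), MCM7 (0.10), PCNA (1.36), WEE1 (0.61), HPRT1 (0.60), IKZF3 (0.77), TP53INP1 (−0.88), MS4A1 (−0.57) and PHOSPHO1 (−0.54), and differences for WEE1 (0.62) and PHOSPHO1 (−0.37). A further 4 effects and 1 difference kept their direction but were no longer called. The reversals follow from the placing, so these genes rest on it. Of 120 effects of named genes, 77 are of labels that share a row with their values, and all others rest on the placing too.

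Deviations of same-numbered libraries correlated from −0.279 to 0.166, with 0.166 between the Raji-4RH groups. With 2 libraries a group, this cannot settle whether replicate numbers mark shared cultures. With the replicate block 7886 genes were called in Raji-4RH, 4583 higher, 3303 lower, and 4915 differed between the lines, and no named gene changed its call. With 2 libraries a group, small effects of low genes limit what can be read.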

Other observations

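Some genes often used as references for normalization were called. Of 19 housekeeping genes tested, 11 were called lower and 6 higher (median effect −0.16), where 31.6% of all genes were called lower and 43.3% higher. After quantile normalization 8 were lower and 5 higher (median −0.03). HPRT1, of purine salvage, was at 54.4 and 53.4 FPKM in Raji-4RH DMSO and at 30.1 and 31.6 FPKM in Raji-4RH chidamide (−0.79 ± 0.072, adjusted p = 1.6e-05, limma), and RPLP0, a ribosomal stalk protein, at 657 and 669.8 against 923 and 869 FPKM (0.43 ± 0.062, adjusted p = 0.00026, limma). The groups did not overlap for either gene, which was a condition for naming them. After quantile normalization the effects were −0.55 and 0.23.

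Effects also varied with gene length. Of the 2142 tested genes with the shortest exon length, 13.9% rose and 6.2% fell by at least 1, and of the 2142 with the longest, 8.5% rose and 2.3% fell by at least 1. The SD of the effects was 0.84 in the shortest and 0.61 in the longest group. Of 77 long noncoding genes tested, 14.3% rose and 1.3% fell by at least 1, against 10.0% and 5.1% of 10467 protein-coding genes, with no test of these shares.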
